A study of Mus musculus with 19 samples.

Results

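Translation initiation factor genes were taken as the protein-coding genes of the deposited expression table whose symbol begins with Eif followed by a digit from 1 to 6. This gave 55 of 25891 listed genes. They fell into 8 groups by role, from the 14 subunit genes of eIF3 to the 4 eIF2 kinases. A further 9 listed names matched the symbol but were not protein coding, and they were not used. RNA was sequenced from MII oocytes, the mature oocytes that await fertilization, and from 2cell embryos. Libraries were labelled CPEB3+/- (Het) or CPEB3-/- (KO), with 5 of each genotype in MII oocytes and with 5 CPEB3+/- and 4 CPEB3-/- in 2cell embryos. All came from BL6 females 6 to 10 weeks old that had received 5 IU of PMSG and, 48 h later, 5 IU of hCG, both of which stimulate ovulation. The 2cell embryos came from mated females, were cultured in vitro from the zygote and were collected 37 h after hCG. The genotype is that of the mother. In CPEB3-/- oocytes, Cre under the ZP3 promoter acted on LoxP alleles of *Cpeb3* in the growing oocyte, so protein made earlier can remain. The labels give the controls only as Het. CPEB3 is an RNA-binding protein of the family that binds cytoplasmic polyadenylation elements, and the comparison asks how its loss in the oocyte changes the RNA of the oocyte and of the embryo.

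In translation initiation, eIF2 brings the initiator tRNA to the small ribosomal subunit, and eIF1, eIF1A and eIF3 hold that complex open for scanning. The eIF4 factors recognise the cap of the mRNA and unwind its leader, and eIF5, eIF5B and eIF6 act when the subunits join. The exchange factor eIF2B reloads eIF2 with GTP, and eIF2 kinases oppose it. Oocytes and early embryos depend on these factors because transcription is silent at maturation, so that stored mRNA is translated until the embryonic genome becomes active.

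The depth read from low values was 17.2 to 23.6 M fragments (mega-fragments) per library, with a median of 19.8 M. *Cpeb3* did not fall in the CPEB3-/- libraries. For MII oocytes its FPKM averaged 0.0755 ± 0.0240 (SD) over the 5 CPEB3+/- libraries and 0.162 ± 0.0325 over the 5 CPEB3-/- libraries. For 2cell embryos the averages were 0.0303 ± 0.0149 and 0.0554 ± 0.0129. The value covers the whole gene, so it does not separate the deleted part from the rest, and CPEB3+/- and CPEB3-/- stand below for the libraries labelled so. The 8 oocyte markers had a summed level of 807 to 1128 FPKM in MII and 98.8 to 159 FPKM in 2cell libraries over both genotypes. The 7 markers of 2cell embryos had 37.8 to 61.3 FPKM and 392 to 591 FPKM. Nothing says that the libraries came from separate animals, so p-values measure the spread between these libraries only. Fewer cells of a type and less RNA per cell cannot be told apart in such values. Per the study's methods, mRNA was captured and amplified with a Smart-seq kit. Whether capture varied with the length of the poly(A) tail was not tested, so levels here are those of captured RNA.

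Levels are read as FPKM, a unit inferred from the study's methods and the values, that is fragment numbers adjusted for transcript length and library size, and can be compared between genes. *Eif1*, which keeps the scanning complex faithful to the start codon, was the most abundant of the 55 genes in each group. Its means were 325 ± 10.5 FPKM in CPEB3+/- MII oocytes, 286 ± 18.5 in CPEB3-/- MII oocytes, 388 ± 28.6 in CPEB3+/- 2cell embryos and 332 ± 40.0 in CPEB3-/- 2cell embryos (SD). It alone made up 39.7% of the summed FPKM of the 55 genes in CPEB3+/- MII oocytes and 48.1% in CPEB3+/- 2cell embryos. The FPKM of all listed genes summed to 85804 and 148514 on average in these groups. Of that sum *Eif1* made up 0.379% and 0.262%, and the 55 genes 0.954% and 0.544%. The genes that led the other roles had lower levels. In CPEB3+/- MII oocytes the exchange factor subunit gene *Eif2b1* stood at 128 ± 15.7 FPKM and *Eif5a*, grouped here with the subunit joining factors, at 57.1 ± 4.46. *Eif3j2*, an eIF3 subunit gene, stood at 34.5 ± 3.82 and *Eif2s2*, which codes for the beta subunit of eIF2, at 31.0 ± 2.72. *Eif1b* (63.7 ± 5.95 FPKM) and *Eif5* (44.5 ± 3.93 FPKM), which led no role, lay between these. Among the eIF4 factors *Eif4g2*, an eIF4G relative that works without the cap-binding protein, had the highest mean over all libraries, at 14.3 ± 1.21 FPKM in CPEB3+/- MII oocytes and 35.3 ± 5.20 in CPEB3+/- 2cell embryos. *Eif4enif1*, whose product binds eIF4E and represses its mRNAs, led the eIF4E-binding group at 2.71 ± 0.264 FPKM, and *Eif2ak1* led the kinases at 2.14 ± 0.246, both in CPEB3+/- MII oocytes.

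At the low end, 9 of the 55 genes had means under 0.1 FPKM in CPEB3+/- MII oocytes and 3 did in CPEB3+/- 2cell embryos. *Eif2ak2*, the kinase activated by double-stranded RNA, had a mean of 0.0471 ± 0.0185 FPKM in CPEB3+/- MII oocytes and under 0.02 FPKM in the other groups, and passed no filter. *Eif4ebp3* was listed at 0 or below 1e-06 in all MII libraries and lies within *Ankhd1* on the same strand. The Y-linked *Eif2s3y*, which codes for a gamma subunit of eIF2, was at 0 in 4 of 5 libraries of either MII group. In 2cell embryos it ranged from 0.215 to 0.550 FPKM in CPEB3+/- and from 0.172 to 0.273 in CPEB3-/-. The near-identical pairs *Eif1* and *Eif1b*, *Eif1a* and *Eif1ax*, *Eif2s3x* and *Eif2s3y*, and *Eif3j1* and *Eif3j2* may share fragments, and so may their processed pseudogenes.

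**Figure D1:**
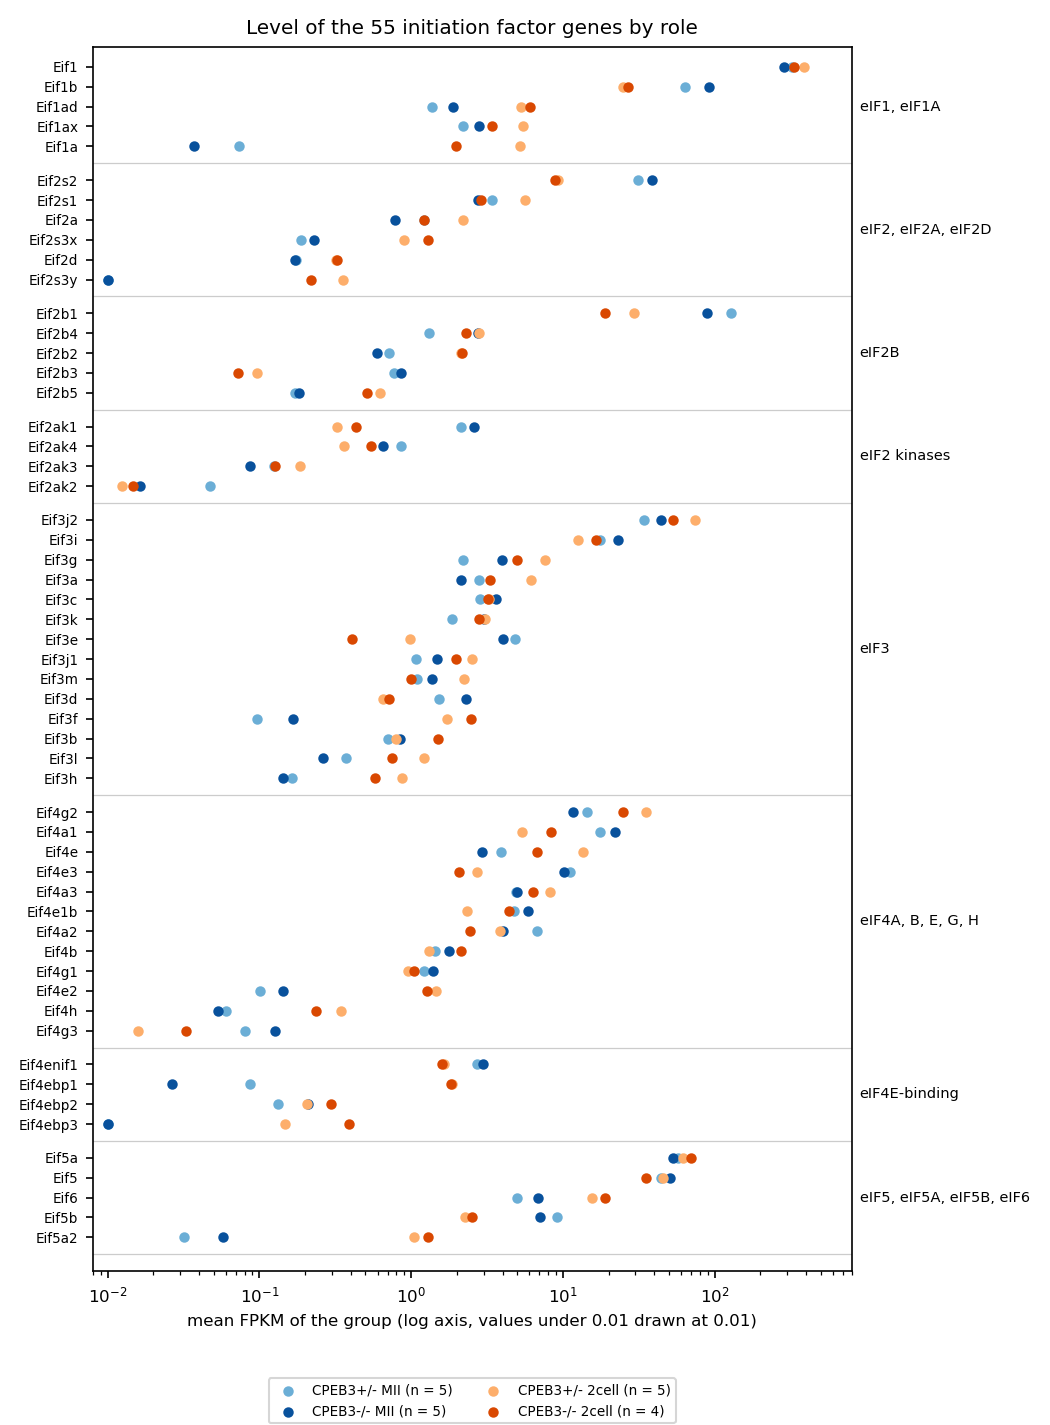
Mean FPKM of each of the 55 initiation factor genes (log axis) in the 4 groups, arranged by role and, within a role, by level. *Eif1* lies between 286 and 388 FPKM in every group, while the means of 9 genes lie under 0.1 FPKM in CPEB3+/- MII oocytes.

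In MII oocytes, few of these genes differed by more than 1.5-fold between the genotypes. Of the 48 that passed the filter of 0.1 FPKM in 5 libraries, 2 were called higher in CPEB3-/- and 0 lower. A call needed an adjusted p under 0.05 in limma with Benjamini-Hochberg adjustment over all tested genes and more than 1.5-fold. Fold changes are differences of log2(FPKM + 0.1), so those of low genes come out too small. Among all genes tested, 12.9% were called, 5.59% higher and 7.29% lower, so the share of 4.17% among the initiation factor genes was below the background. Without the fold threshold 12 of 48 (25%) passed, 6 in each direction, where 21.4% of all genes did, and 28 of 48 (58.3%) had an unadjusted p under 0.05, where 37.1% of all genes did. The genotypes did not overlap, once scaled, for 13 of the 48 (27.1%), beside 16.7% of all genes. By these measures, which set no minimum fold, the members' shares were above those of all genes. The median log2 fold change of the 48 genes was 0.10, beside 0.01 over all genes. Scaled to equal sums of FPKM, 4 were higher and 0 lower, the median over all genes was 0.15 and 69.9% of all calls were higher (57.1% with the values as deposited), beside 43.4%. In 1 fit of all 19 libraries 1 was higher and 2 lower, *Eif4a2* (-0.94) and *Eif4ebp1* (-0.63), where 1286 of 15786 of all genes were called and 40.7% of those were higher. With a filter of 1 FPKM 3 were higher and *Eif4a2* lower (-0.88), and without a filter 1 was higher and *Eif4ebp1* lower (-0.60), where 774 of 4435 and 1032 of 23046 of all genes were called.

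The 2 called genes code for a subunit of the exchange factor and a subunit of eIF3. *Eif2b4* (delta subunit of eIF2B, chr5:31187558-31193430, minus strand, GRCm38) stood at 1.12, 1.81, 0.816, 0.994 and 1.77 FPKM in the CPEB3+/- libraries A to E and at 4.38, 2.49, 2.71, 2.08 and 2.05 FPKM in the CPEB3-/- libraries A to E. All CPEB3-/- libraries lay above all CPEB3+/- libraries, and CPEB3-/- library A was the highest by far. In log2 terms the fold change was 0.93 (standard error, SE, of 0.224; adjusted p = 0.0166, limma with Benjamini-Hochberg). *Eif3g*, whose product binds RNA within eIF3, stood at 1.85, 2.76, 1.92, 1.73 and 2.73 FPKM in CPEB3+/- and at 6.49, 2.90, 4.39, 3.05 and 3.04 FPKM in CPEB3-/- (log2 fold change 0.69, SE 0.206, adjusted p = 0.0389, limma with Benjamini-Hochberg). Its groups did not overlap either, but the *Eif3g* call was lost when CPEB3-/- library A was left out, and also without CPEB3+/- library A, C or D or CPEB3-/- library C (largest adjusted p = 0.0907, limma with Benjamini-Hochberg). It was also lost in 6 of 10 other alternatives, among them a pseudocount of 1 FPKM, no filter on low values and removal of the GC content trend (log2 fold change 0.48, adjusted p = 0.0558, limma with Benjamini-Hochberg). The GC content of the 2 called transcripts was 55.8% and 56.8%, beside a median of 49.8% for the 46 not called. *Eif2b4* kept its call in those alternatives except with a replicate block (adjusted p = 0.0525, limma with Benjamini-Hochberg). *Eif2b4* shares its locus with *Snx17* on the opposite strand, and the kit is not stated to mark strand.

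The other 10 genes with an adjusted p under 0.05 stayed under 1.5-fold. *Eif5b*, whose product joins the ribosomal subunits, ranged from 8.70 to 9.69 FPKM in CPEB3+/- and from 6.30 to 7.67 FPKM in CPEB3-/- oocytes, without overlap (log2 fold change -0.47, adjusted p = 0.00585, limma with Benjamini-Hochberg). The eIF3 subunit gene *Eif3d* ranged from 1.38 to 1.73 and from 1.98 to 2.90 FPKM (log2 fold change 0.46), also without overlap. *Eif1* and *Eif1b* lay on opposite sides. *Eif1* ranged from 308 to 336 FPKM in CPEB3+/- and from 260 to 305 FPKM in CPEB3-/- (log2 fold change -0.28), and *Eif1b* from 58.6 to 71.8 and from 73.6 to 126 FPKM (0.40).

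CPEB3-/- library A of the MII oocytes stood apart from its group by Dixon's test in *Eif2b4*, *Eif3b* and *Eif3l*, in each as the highest. It was also the lowest of its group in *Eif2b1* and *Eif4g2*, though not past the critical value of that test. *Eif2b1* was 49.5 FPKM there and 83.9 to 110 FPKM in the other CPEB3-/- libraries, and *Eif4g2* was 8.12 FPKM there and 11.4 to 13.4 in the others. Leaving it out reduced the calls from 2 to 1, as did leaving out CPEB3+/- library A, C or D or CPEB3-/- library C, while 4 genes were called without CPEB3+/- library B or CPEB3-/- library E. The calls among all genes moved as well, from 1355 to 1052 without CPEB3-/- library A and to between 926 and 1493 over the 10 such fits. The markers of the MII stage moved with the genotype too. The oocyte markers summed to 839 to 1128 FPKM in CPEB3+/- and 807 to 901 FPKM in CPEB3-/- oocytes, with 1 of 8 called lower, *Mos* (log2 fold change -1.75). The markers of 2cell embryos summed to 37.8 to 44.8 FPKM and 45.8 to 61.3 FPKM, without overlap, and 2 of 5 tested were called higher, *Zscan4c* (2.24) and *Zscan4d* (2.89). Their part in the results was not tested.

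In 2cell embryos, 13 of the 52 initiation factor genes that passed the filter of 0.1 FPKM in 4 libraries were called, of which 3 were higher and 10 lower in CPEB3-/-. The genotypes did not overlap, once scaled, for 19 of the 52 (36.5%), beside 20.7% of all genes tested. Of the 52, 6 were higher in this way (11.5%, beside 9.28% of all genes) and 13 lower (25%, beside 11.4%). Among all genes tested 18.3% were called, 8.41% higher and 9.85% lower. The members' share was 5.77% higher and 19.2% lower, so by calls they exceeded the background only in the lower direction. The median log2 fold change was -0.21, beside -0.01 over all genes. By role, the eIF3 subunits, the largest group, had the most calls, 1 higher and 4 lower of 14, with a median of -0.44. Of 11 tested cap-binding, scaffold and helicase genes 2 were higher and 2 lower, with a median of -0.42. Both the eIF1 group and the eIF2 group had 2 lower of 5 and 6, respectively, and none of the 4 tested eIF2B genes, 3 kinases, 4 eIF4E-binding inhibitors and 5 genes of the eIF5 to eIF6 group was called.

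The markers of cumulus and granulosa cells were near 0, since 7 of 11 stayed under 0.1 FPKM in every CPEB3+/- and 8 in every CPEB3-/- 2cell library. Their sum nevertheless moved with the genotype, from 0.853 to 1.13 FPKM in CPEB3+/- and 0.353 to 0.756 FPKM in CPEB3-/- 2cell libraries. The 2 tested were both called lower, *Gja1* (means 0.457 and 0.213 FPKM) and *Tnfaip6* (0.274 and 0.0905). In CPEB3+/- MII oocytes their means were 0.000651 and 0.00307 FPKM. Of those not tested, *Cyp19a1*, *Foxl2*, *Has2*, *Inhbb* and *Vcan* had higher means in CPEB3-/- 2cell embryos. *Fshr*, *Inhba*, *Kitl* and *Ptgs2* had lower means there. The oocyte markers summed to 98.8 to 159 FPKM (median 107) in CPEB3+/- and 127 to 156 FPKM (median 146) in CPEB3-/-, and 1 of 8 was called higher, *Ooep* (log2 fold change 0.89). Of the 7 markers of 2cell embryos *Zscan4d* was called lower (-1.03). The part of these markers in the results was not tested. The 3 sperm and blood cell markers summed to 47.8 to 99.9 FPKM and 35.0 to 78.0 FPKM, nearly all of it *Hba-a1*.

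Both genes for eIF1A, which stabilises the scanning complex, were lower in CPEB3-/- embryos. *Eif1a*, which the study followed up, stood at 4.24, 4.74, 4.68, 5.37 and 6.95 FPKM in CPEB3+/- libraries A to E and at 3.0, 1.28, 1.98 and 1.68 FPKM in CPEB3-/- libraries A to D. Every CPEB3-/- library was below every CPEB3+/- library. In log2 terms the fold change was -1.44 (SE 0.222, adjusted p = 0.00341, limma with Benjamini-Hochberg). The X-linked *Eif1ax* (chrX:159372178-159389928, plus strand) ranged from 4.53 to 6.33 FPKM in CPEB3+/- and from 3.01 to 3.87 FPKM in CPEB3-/-, again without overlap (log2 fold change -0.72, adjusted p = 0.00534, limma with Benjamini-Hochberg). The call of *Eif1ax* was lost in 4 of 10 alternatives other than leaving out a library, and with the GC content trend removed its log2 fold change was -0.35.

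Because CPEB3 belongs to a family that binds cytoplasmic polyadenylation elements, the last 100 bases of the transcript were searched on the sense strand for TTTTAT and TTTTAAT. One was found in 3 of the 50 initiation factor genes with a 3′UTR at least that long, beside 18.6% of 16104 protein-coding genes. Among the 13 called genes it was present in *Eif1ax* and absent from the window of the other 11 that could be searched. The 30 bases around the element are shown for *Eif1ax* (chrX:159389887-159389916, plus strand) and for *Eif4e3* (chr6:99625215-99625244, minus strand), with the element in capitals, since these are the only matches outside *Eif3j2*. They were read from the GRCm38 genome with GENCODE vM21 transcripts.
Eif1ax: attcagtggatgTTTTATgctgcacaaata
Eif4e3: attttgagaaaaTTTTATttttgaacttta
A match is a description of these letters in this window and not a binding site.

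Of the 4 genes of the eIF4E family, *Eif4e* was called lower and *Eif4e1b* higher, and *Eif4e2* and *Eif4e3* were not called (log2 fold changes -0.21 and -0.42). *Eif4e* (chr3:138526179-138559696, plus strand), which codes for the cap-binding protein, stood at 12, 12.4, 12, 14.3 and 16.7 FPKM in CPEB3+/- and at 7.92, 7.20, 5.99 and 6.06 FPKM in CPEB3-/- (log2 fold change -1.03, SE 0.139, adjusted p = 0.00194, limma with Benjamini-Hochberg). No CPEB3-/- library reached the lowest CPEB3+/- library. *Eif4e1b* (chr13:54783998-54788459, plus strand), the oocyte-enriched relative of eIF4E, stood at 3.15, 2.47, 2.26, 2.00 and 1.75 FPKM in CPEB3+/- and at 4.47, 3.58, 4.42 and 5.24 FPKM in CPEB3-/- (log2 fold change 0.86, SE 0.199, adjusted p = 0.0158, limma with Benjamini-Hochberg). All 4 CPEB3-/- libraries lay above all 5 CPEB3+/- libraries. The ratio of *Eif4e1b* to *Eif4e* within a library does not depend on the scaling between libraries. It was 0.104 to 0.262 in CPEB3+/- and 0.497 to 0.866 in CPEB3-/- 2cell embryos, without overlap. In MII oocytes it was 0.761 to 1.88 and 1.10 to 4.09, which overlapped. The GC content of the 2 transcripts was 52.8% and 40.5%, and the ratio was not corrected for it.

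Among the helicase genes, *Eif4a2* (chr16:23107444-23114136, plus strand) ranged from 2.87 to 4.48 FPKM in CPEB3+/- and from 2.26 to 2.57 FPKM in CPEB3-/-. It was called lower, with a log2 fold change of -0.69 (adjusted p = 0.0144, limma with Benjamini-Hochberg), but kept the call in only 3 of 10 alternatives other than leaving out a library. In MII oocytes its levels were 4.63 to 9.11 FPKM and 2.32 to 7.38 FPKM, and the difference of -0.91 on the log2 scale did not pass (adjusted p = 0.0662, limma with Benjamini-Hochberg), and the interaction of 0.27 was not called. In 2cell embryos its paralog *Eif4a1* ranged from 4.90 to 6.26 FPKM and from 6.96 to 9.07 FPKM, above in every CPEB3-/- library, with a log2 fold change of 0.56 that fell short of 1.5-fold. *Eif4b* (chr15:102073773-102097173, plus strand), a cofactor of the helicase, was called higher, at 1.01 to 1.63 FPKM in CPEB3+/- and 1.84 to 2.41 FPKM in CPEB3-/- (log2 fold change 0.61, adjusted p = 0.0205, limma with Benjamini-Hochberg). The ratio of *Eif4a1* to *Eif4a2* was 1.15 to 2.18 in CPEB3+/- and 2.94 to 4.02 in CPEB3-/- embryos. It was not corrected for their GC content (46.3% and 40.2%). *Rfc4* overlaps *Eif4a2* on the opposite strand.

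Among the genes that deliver the initiator tRNA, *Eif2s1* and *Eif2a* were called lower. *Eif2s1* (alpha subunit of eIF2, the one that the kinases phosphorylate, chr12:78861819-78887010, plus strand) stood at 4.18, 4.19, 4.59, 6.97 and 8.25 FPKM in CPEB3+/- and at 3.03, 2.65, 3.19 and 2.62 FPKM in CPEB3-/-. CPEB3+/- libraries D and E were the highest, and the groups did not overlap (log2 fold change -0.95, adjusted p = 0.0134, limma with Benjamini-Hochberg). *Eif2a* (chr3:58525821-58557501, plus strand), which codes for an alternative initiator tRNA carrier and overlaps *Serp1* on the opposite strand, ranged from 1.83 to 2.72 FPKM and from 1.11 to 1.34 FPKM (log2 fold change -0.86, adjusted p = 0.00529, limma with Benjamini-Hochberg).

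Of the eIF3 subunits, *Eif3e*, *Eif3m*, *Eif3a* and *Eif3l* were called lower and *Eif3b* higher. *Eif3a* (chr19:60761116-60790693, minus strand in the table) and *Eif3b* (chr5:140419328-140443360, plus strand) code for core subunits. *Eif3a* ranged from 4.07 to 7.85 FPKM in CPEB3+/- and from 2.99 to 3.69 FPKM in CPEB3-/- (log2 fold change -0.90), while *Eif3b* ranged from 0.484 to 1.07 and from 1.10 to 1.86 FPKM (log2 fold change 0.81). *Eif3e* (chr15:43250058-43282719, minus strand) stood at 0.672, 0.842, 1.02, 0.912 and 1.47 FPKM in CPEB3+/- and at 0.440, 0.379, 0.426 and 0.390 FPKM in CPEB3-/-, and had the largest fall of the eIF3 genes (log2 fold change -1.10, adjusted p = 0.00582, limma with Benjamini-Hochberg). These 3 genes did not overlap between genotypes. *Eif3m* (1.16 to 3.06 FPKM against 0.749 to 1.28 FPKM) and *Eif3l* (0.992 to 1.63 against 0.560 to 1.09) did. The calls of *Eif3l*, *Eif3m*, *Eif3b* and *Eif4b* were each lost in at least 2 of the 9 fits that left out a library. *Eif3l* was lost in 7 of them (largest adjusted p = 0.116) and *Eif3b* in 4 (0.0787, limma with Benjamini-Hochberg).

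Without the fold threshold 18 of 52 (34.6%) passed, where 20.2% of all genes did, so that 5 of the genes not called had an adjusted p under 0.05. They were *Eif4a1*, *Eif3f*, *Eif3j2*, *Eif4g2* and *Eif5*. *Eif4g2* ranged from 28.0 to 41.4 FPKM in CPEB3+/- and from 23.7 to 28.1 FPKM in CPEB3-/- (log2 fold change -0.55), with the lowest CPEB3+/- library just under the highest CPEB3-/- library before scaling and no overlap after it. *Eif5*, which codes for the GTPase-activating factor of eIF2, ranged from 39.1 to 56.1 and from 33.6 to 35.9 FPKM (-0.42), without overlap. Among the kinases, *Eif2ak4*, which senses uncharged tRNA, ranged from 0.331 to 0.375 FPKM in CPEB3+/- and from 0.425 to 0.634 FPKM in CPEB3-/- embryos. Its groups did not overlap, but the test was not passed (log2 fold change 0.42, adjusted p = 0.0883, limma with Benjamini-Hochberg). *Eif2b1* had log2 fold changes of -0.65 in MII oocytes and -0.69 in 2cell embryos and passed the test in neither.

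**Figure D2:**
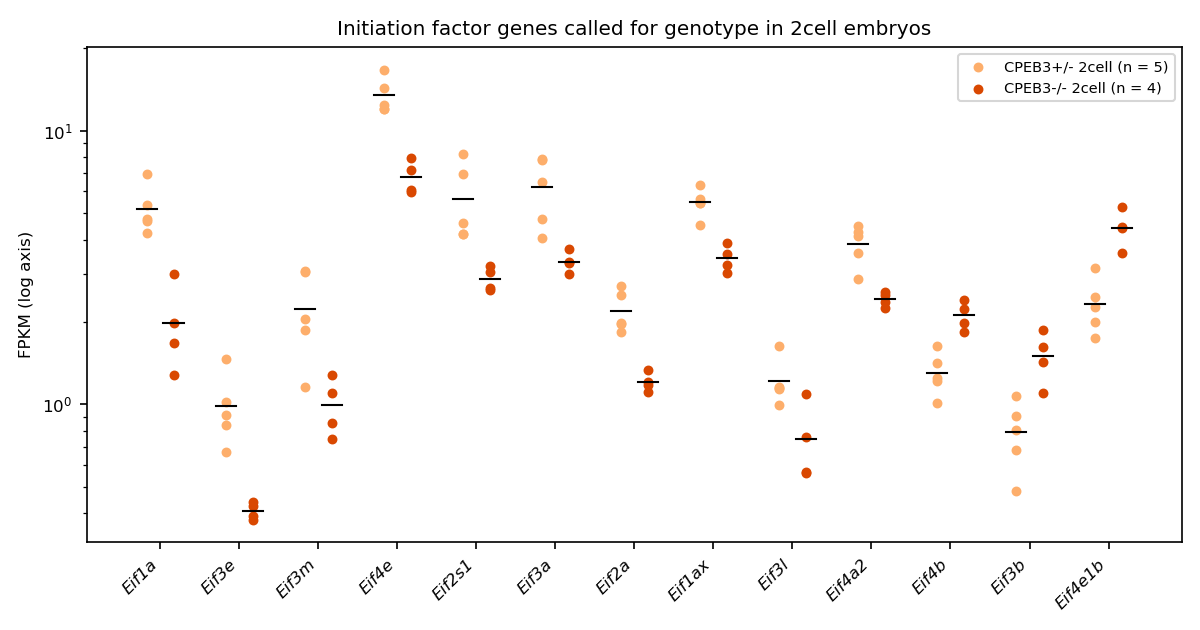
FPKM (log axis) of the 13 initiation factor genes called for genotype in 2cell embryos, ordered by fold change. Points are libraries and bars are group means. *Eif1a* lies between 4.24 and 6.95 in CPEB3+/- and between 1.28 and 3.0 in CPEB3-/- libraries, and *Eif4e1b*, at the right, lies higher in CPEB3-/-.

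The balance of higher and lower calls differed with the scaling between libraries. Scaled to equal sums of FPKM in place of trimmed means, 8 genes were called higher and 3 lower, and the median over all genes moved from -0.01 to 0.26. The share of all calls that were higher was then 80.9%, beside 46.0%. *Eif1a*, *Eif3e* and *Eif4e* kept the lower call and *Eif4e1b*, *Eif3b* and *Eif4b* the higher call under that scaling.

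The called genes also differed in the GC content of the transcript. It was 36.2% to 49.8% (median 40.1%) for the 10 lower genes, 50.3% to 55.9% for the 3 higher genes and 36.4% to 57.9% (median 50.1%) for the 39 not called. With the trend over GC content removed from each library, 12 genes were called, 4 higher and 8 lower, but only 5 of the 13 were among them. Of all genes 1843 of 13933 were then called, beside 2565 of 14051. The 5 members that kept the call were *Eif1a* (log2 fold change -1.08), *Eif4e* (-0.70), *Eif3a* (-0.74), *Eif3l* (-0.75) and *Eif4e1b* (0.69). The call was lost by *Eif3m* (-0.68), *Eif2s1* (-0.62), *Eif3e* (-0.58), *Eif2a* (-0.50), *Eif1ax* (-0.35), *Eif4a2* (-0.34), *Eif4b* (0.56) and *Eif3b* (0.54). A call was gained by 7 genes, of which *Eif3g* (-0.91), *Eif4a3* (-0.64), *Eif2b4* (-0.63) and *Eif3h* (-0.62) were lower and *Eif4a1* (0.65), *Eif5a2* (0.64) and *Eif2s3x* (0.62) higher.

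**Figure D3:**
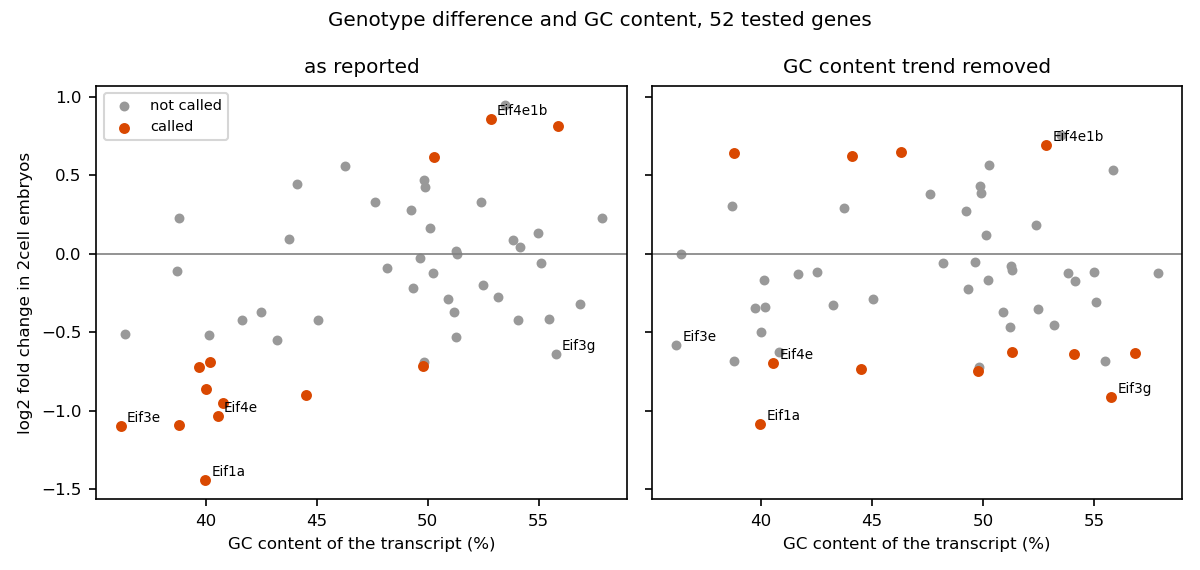
Log2 fold change in 2cell embryos (CPEB3-/- over CPEB3+/-, log2(FPKM + 0.1) scale) against the GC content of the transcript in percent, for 52 initiation factor genes, as reported (left) and with the GC content trend removed (right). Called genes are orange. On the left, the lower calls lie at 36.2% to 49.8% GC.

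Of 21 other initiation genes that are not called Eif, such as kinases of eIF4E and poly(A)-binding proteins, 20 were tested in 2cell embryos, 3 were called higher and 1 lower, with a median of -0.01, beside the 18.3% called among all genes. The higher ones were *Mknk2*, a kinase of eIF4E (log2 fold change 1.37), the oocyte poly(A)-binding protein gene *Pabpc1l* (0.80) and *Ppp1r15a*, which directs dephosphorylation of eIF2 (0.66). *Paip2*, a repressor of poly(A)-binding protein, was lower (-0.73). In MII oocytes 0 of 18 were higher and 2 lower, *Pabpc1* (-0.82) and *Mcts2* (-0.85). Of the elongation and termination factors 2 of 12 were higher in 2cell embryos, *Eef2* (0.75) and its kinase *Eef2k* (1.85), and none was lower. In MII oocytes 1 of 12 was higher, again *Eef2* (0.70), and none was lower.

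Whether the genotype difference changed between the stages was tested as an interaction of stage and genotype in a limma fit of all 19 libraries. Calls were made for 9 of 54 initiation factor genes, 2 of them higher and 7 lower, where higher means that the log2 fold change of CPEB3-/- over CPEB3+/- was more positive in 2cell embryos than in MII oocytes. Among all genes 7.64% were called, 3.71% higher and 3.93% lower, so the members' share was 16.7%, above the background in the lower direction (13%). Of the 46 members at 0.1 FPKM or more in at least 4 libraries of each stage, 8 (17.4%) were called, 2 higher and 6 lower, where 6.93% of all such genes were, 2.73% higher and 4.2% lower. The largest of these were *Eif3g* (log2 difference -1.28), *Eif3m* (-1.25), *Eif2b4* (-1.21) and *Eif1ax* (-0.91). *Eif1a* (-1.04) passed the filter through its 2cell libraries alone. *Eif3g* and *Eif2b4* were higher in CPEB3-/- oocytes, and in 2cell embryos the log2 fold changes were -0.64 and -0.32, neither called. *Eif3m* and *Eif1ax* had log2 fold changes of 0.20 and 0.24 in MII oocytes, neither called, and were lower in 2cell embryos. The other 4 were *Eif2ak4* (0.90) and *Eif5b* (0.61), both higher, and the eIF3 subunit genes *Eif3j2* (-0.74) and *Eif3j1* (-0.66), both lower.

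*Eif1a* did not pass the filter for the genotype comparison in MII oocytes. It was not called there without a filter or in 1 fit of all 19 libraries. It ranged from 0.0270 to 0.112 FPKM in CPEB3+/- and from 0.0191 to 0.0588 FPKM in CPEB3-/- oocytes, where 3 fragments over its longest annotated transcript amount to 0.0509 and 0.0493 FPKM. These MII values lie around or below the pseudocount, so its interaction value rests mostly on the 2cell libraries. The interaction of *Eif1a* was lost in 9 of 19 fits that left out a library and in 4 of 9 other alternatives (largest adjusted p = 0.123, limma with Benjamini-Hochberg), while its 2cell fall held in all 9 fits that left out a library. Scaled to equal sums of FPKM, 2 genes were higher and 5 lower, and 65.8% of all calls were higher, beside 48.6%. Of the 9 genes, 6 kept the call with the GC content trend removed. *Eif3g*, *Eif3m*, *Eif2b4* and *Eif1ax* kept it without any single library. With a replicate block 6 of the 9 kept it (827 of all genes were called, beside 1206), and *Eif3g* lost it (adjusted p = 0.0551, limma with Benjamini-Hochberg). *Eif3m* and *Eif1ax* lost it with the block and the GC content trend removed together (adjusted p = 0.0957 for both, limma with Benjamini-Hochberg).

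**Figure D4:**
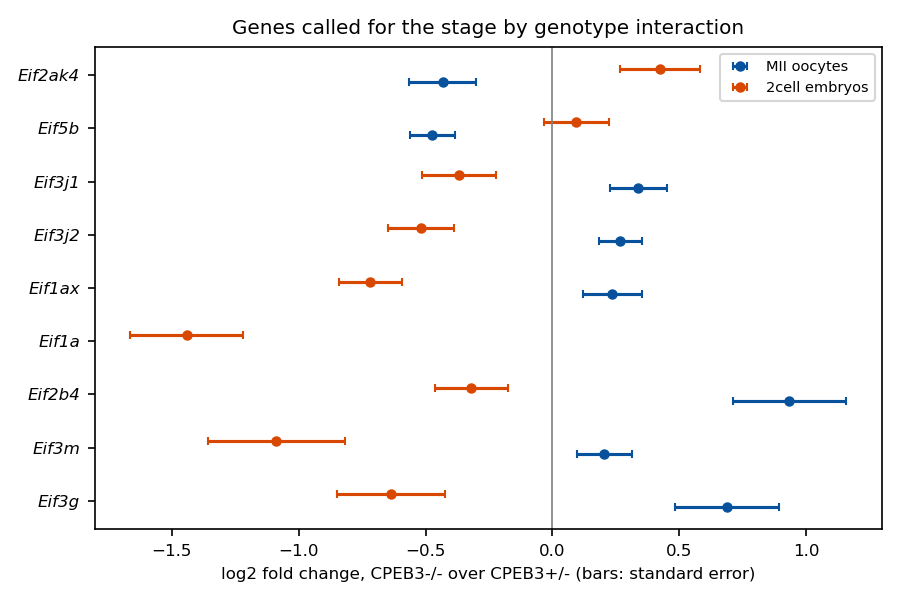
Log2 fold change of CPEB3-/- over CPEB3+/- (log2(FPKM + 0.1) scale) in MII oocytes and in 2cell embryos for the 9 genes called for the interaction, with standard errors. *Eif2b4* is at 0.93 in MII oocytes and -0.32 in 2cell embryos, and *Eif1a* has no MII value because it did not pass the filter.

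Between the stages, the share of initiation factor genes called lay above that of all genes in CPEB3+/- and below it in CPEB3-/-. In CPEB3+/- 41 of 54 (75.9%) were called, and of these 25 were higher and 16 lower in 2cell embryos. Of all genes 66.6% were called, 38% higher and 28.5% lower. In CPEB3-/- 33 (61.1%) were called, and of these 18 were higher and 15 lower. Of all genes 65.1% were called, 38.2% higher and 27% lower. Through 2cell libraries alone, 6 of the 54 passed the filter, and 2 did through MII libraries alone, and their direction was set by that. Among the other 46 members, 33 (71.7%) were called in CPEB3+/-, 19 higher (41.3%) and 14 lower (30.4%). In CPEB3-/- 25 of them (54.3%) were called, 12 higher (26.1%) and 13 lower (28.3%). Of the 9637 genes that passed in both stages, 62% were called in CPEB3+/- (25.1% higher, 36.8% lower) and 59.6% in CPEB3-/- (24.9% higher, 34.7% lower). The median log2 difference over all genes was 0.20 and 0.21. It moved to 0.36 in CPEB3+/- with the values as deposited and to -0.17 when scaled to equal sums of FPKM, under which 17 genes were higher and 21 lower and 45.6% of all calls were higher, beside 57.2%. In CPEB3-/- 16 were then higher and 22 lower, and 48.8% of all calls were higher, beside 58.6%.

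The 5 largest rises in CPEB3+/- were *Eif1a*, *Eif4ebp1*, *Eif3f*, *Eif5a2* and *Eif4e2*. *Eif1a*, *Eif4ebp1* and *Eif5a2* passed the filter through 2cell libraries alone, so a higher 2cell level was a condition of their being tested and their values are a description. *Eif1a* went from a mean of 0.0737 ± 0.0325 FPKM to 5.20 ± 1.06 FPKM (SD, n = 5), a log2 difference of 4.78. *Eif4ebp1* (chr8:27260329-27276674, plus strand), whose product is an inhibitor that binds eIF4E, went from 0.0867 ± 0.0240 to 1.85 ± 0.448 FPKM (log2 difference 3.21). *Eif3f* (0.0958 ± 0.0387 to 1.71 ± 0.305), the eIF5A paralog *Eif5a2* (0.0320 ± 0.0178 to 1.05 ± 0.212) and *Eif4e2* (0.101 ± 0.0264 to 1.47 ± 0.399), a cap-binding relative linked to repression, had log2 differences of 3.06, 2.98 and 2.78. For these 5 genes, 3 fragments over the longest annotated transcript would amount to 0.0290 to 0.0730 FPKM in CPEB3+/- MII oocytes, so their MII levels rest on few fragments. The same 5 were called higher in CPEB3-/-, with log2 differences of 3.74, 3.77, 3.22, 3.01 and 2.37.

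The 5 largest falls were *Eif2ak1*, *Eif3e*, *Eif2b1*, *Eif2b3* and *Eif4e3*, all called lower in CPEB3-/- as well, though *Eif2b3* passed the filter through MII libraries alone. *Eif2ak1* (chr5:143817788-143904251, plus strand), the heme-regulated kinase of eIF2, fell from 2.14 ± 0.246 to 0.324 ± 0.0194 FPKM (log2 difference -2.61) in CPEB3+/- and from 2.58 ± 0.112 to 0.430 ± 0.0308 FPKM (-2.47) in CPEB3-/-. *Eif2b1* fell from 128 ± 15.7 to 29.3 ± 7.30 FPKM (-2.38) and *Eif2b3* from 0.769 ± 0.0437 to 0.0969 ± 0.0465 FPKM (-2.36) in CPEB3+/-. *Eif4e3*, an eIF4E relative, fell from 11.1 ± 1.42 to 2.70 ± 0.355 FPKM (-2.24). *Eif3e* fell from 4.81 ± 0.588 to 0.982 ± 0.299 FPKM (-2.45) in CPEB3+/-, and its log2 difference in CPEB3-/- was -3.13.

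In some families the ratio of relatives within a library differed between the stages in CPEB3+/-, and in others it overlapped. *Eif4e* rose in CPEB3+/- from 3.89 ± 0.608 to 13.5 ± 2.04 FPKM (log2 difference 1.53) while *Eif4e3* and *Eif4e1b* fell, and the ratio of *Eif4e3* to *Eif4e* went from 2.19 to 3.97 in MII oocytes to 0.143 to 0.267 in 2cell embryos. The ratio of *Eif1b* to *Eif1* in CPEB3+/- ranged between 0.174 and 0.221 in MII oocytes, and between 0.0464 and 0.0772 in 2cell embryos. That of *Eif1a* to *Eif1ax* went from 0.0135 to 0.0548 to 0.841 to 1.10 in CPEB3+/-, and in CPEB3-/- 2cell embryos was 0.397 to 0.845. Because *Eif1a* passed the filter through 2cell libraries alone, the stage difference of that ratio is a description. The ratio of *Eif3j1* to *Eif3j2* was 0.0294 to 0.0325 in CPEB3+/- MII oocytes and 0.0312 to 0.0373 in CPEB3+/- 2cell embryos, and that of *Eif4a1* to *Eif4a2* was 1.5 to 4.83 and 1.15 to 2.18, both with overlap.

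**Figure D5:**
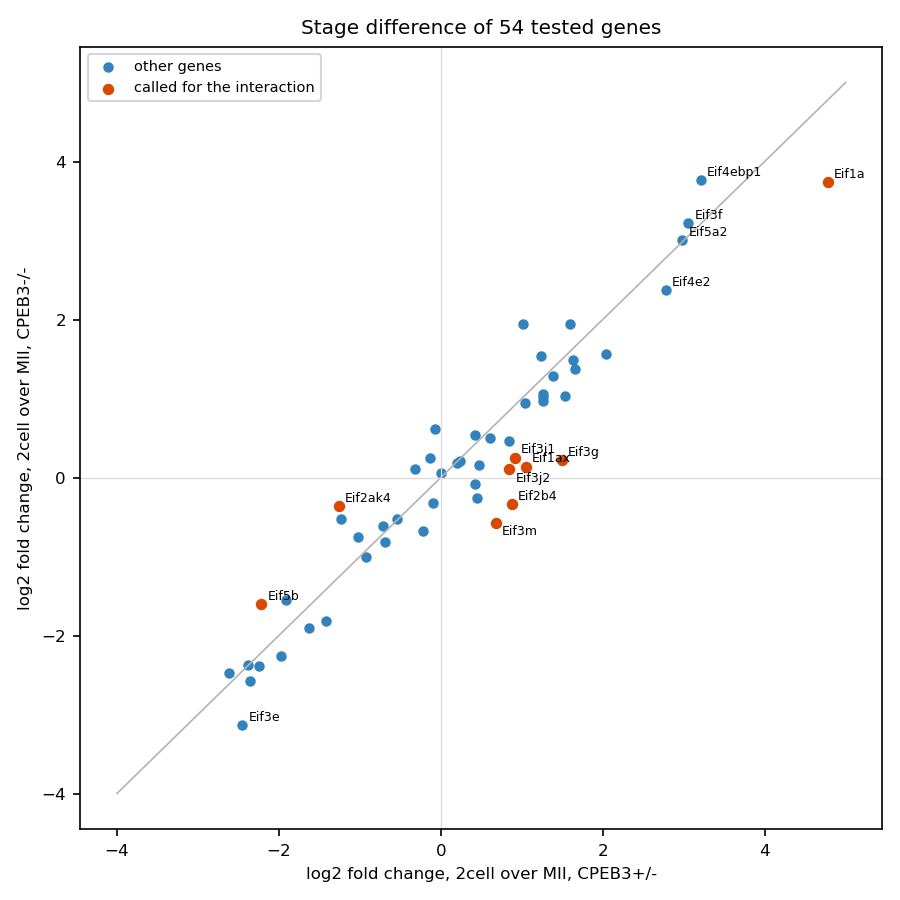
Log2 difference of 2cell embryos over MII oocytes (log2(FPKM + 0.1) scale) for 54 initiation factor genes, in CPEB3+/- (x axis) and CPEB3-/- (y axis), with the line of equal differences. The 9 genes called for the interaction are orange and *Eif1a* lies at 4.78 and 3.74.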

How the data were processed

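MII oocytes and 2cell embryos were profiled by RNA-seq in 19 libraries, grouped by their labels. Per the study's methods, the authors trimmed reads with Trim Galore 0.4.1, used HISAT2 for mapping to GRCm38, and quantified expression in SeqMonk as FPKM. The deposited table is named as raw counts, but its values have decimals, so that the unit FPKM was inferred from the methods and the values. Of the values, 1.07% lay between 0 and 1e-06. The submitters' processing notes give HISAT2 2.0.5. The methods give quadruplicates of 5 cells and another sequencer than the labels, so each labelled library was used. How multimapping fragments were handled is not given in the sources used here. Gene models were GENCODE vM21, and 52 of the 55 genes had its coordinates. The spacing of low values in 9238 genes with 1 transcript gave the depth. Because only 40.8% to 45.6% of low values came within 0.05 of whole fragments (10% by chance), no count model was used.

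Trimmed means of log ratios served to scale the libraries. Values of log2(FPKM + 0.1) were fitted in limma 3.58.1 (R 4.3.3) with a variance trend. Genes needed 0.1 FPKM in 5 MII libraries, 4 2cell libraries or, for stage and interaction, 4 of all 19. Calls needed a Benjamini-Hochberg adjusted p under 0.05 over all genes and more than 1.5-fold. Genotype was fitted within each stage, and stage and the interaction in 1 fit. The method was tested on simulated data. Named genes were *Eif1a*, genes called for genotype (up to 15 by size), up to 5 called for the interaction, the 5 largest rises and falls between stages in CPEB3+/-, the most abundant gene of each role, *Eif4e1b*, *Eif4e* and *Eif2s3y*. Others named were chosen after their values were seen. Genes and lists were chosen with earlier results of these data known. Alternatives were other scalings, pseudocounts and filters, no fold threshold, a replicate block, removal of the GC content trend (loess, span 0.5), 1 fit of all libraries and each library left out. Python 3.11.15, numpy, pandas and matplotlib were used for the rest.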

Additional observations from a re-analysis of the deposited data

Results flagged for a closer look

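In 120 groups of 4 or 5 libraries over 30 named genes, 10 held a library far from the others by Dixon's test, where chance gives about 1 in 20 groups. In CPEB3-/- MII library A, *Eif2b4* was 4.38 FPKM, *Eif3b* 1.20 and *Eif3l* 0.338, each the highest of its group. *Eif2s3y* was 0.00535 FPKM in CPEB3+/- MII library A and 0.00239 FPKM in CPEB3-/- MII library A, with 0 in the other libraries. Any value above 0 stands apart in such a group, and both lie under the level of 3 fragments (0.0468 and 0.0454 FPKM), so these 2 of the 10 carry no weight. *Eif4enif1* was 3.18 FPKM in CPEB3+/- MII library D. *Eif2b1* was 42.1 FPKM in CPEB3+/- 2cell library A and *Eif3l* 1.63 FPKM in CPEB3+/- 2cell library E. *Eif5a2* was 1.61 FPKM in CPEB3-/- 2cell library C and *Eif4g2* 28.1 FPKM in CPEB3-/- 2cell library D.

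The genotype difference of 9 genes differed between the stages by the interaction term (limma with Benjamini-Hochberg). The log2 difference, 2cell minus MII, was -1.28 for *Eif3g*, -1.25 for *Eif3m*, -1.21 for *Eif2b4*, -1.04 for *Eif1a*, -0.91 for *Eif1ax*, -0.74 for *Eif3j2* and -0.66 for *Eif3j1*, and 0.90 for *Eif2ak4* and 0.61 for *Eif5b*. For *Eif1a* the MII values lie near the level of 3 fragments.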

How the results depend on the processing

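In MII oocytes, where 2 initiation factor genes and 1355 of all genes were called, 4 (1589 of all) were called when scaled to equal sums of FPKM, 1 (481) with a pseudocount of 1 FPKM, 4 (774 of 4435 tested) with a filter of 1 FPKM, 12 (2247) without the fold threshold and 1 (1188) with the GC content trend removed. In 2cell embryos, where 13 and 2565 of all genes were called, 7 (1178 of all) were called with a pseudocount of 1 FPKM. With a mean of at least 5 FPKM required, 11 of 15 were called for stage in CPEB3+/- (41 otherwise), 10 in CPEB3-/- (33 otherwise) and 2 for the interaction (9 otherwise), beside 1557, 1491 and 282 of 1983 among all genes, since fewer genes were tested. With 1 library left out, the counts ran from 1 to 4 in MII oocytes, from 10 to 15 in 2cell embryos, 39 to 42 and 31 to 35 for stage in CPEB3+/- and CPEB3-/-, and 7 to 10 for the interaction. Over all genes they ran from 926 to 1493, 1792 to 2563, 10182 to 10486, 9823 to 10266 and 919 to 1494. Of the alternatives run, none turned the direction of a called difference of a named gene.

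The letters of the libraries showed no sign of pairing. Deviations of libraries with the same letter correlated at -0.18 to 0.12 in MII and at -0.07 to 0.04 in 2cell libraries. For unlike letters the ranges were -0.27 to 0.27 and -0.16 to 0.13. So few values cannot exclude a shared batch or animal. With the letter as a replicate block, 0 genes were called in MII oocytes (824 of all genes) and 2 in 2cell embryos, *Eif1a* and *Eif4e* (414 of all genes). With the replicate block and the GC content trend removed, 1, 0 and 5 were called in MII oocytes, 2cell embryos and the interaction, where 930, 0 and 861 of all genes were, so the 0 in 2cell embryos is not particular to these genes. The cause of these shifts was not tested. Depth limits genes near 0.1 FPKM, which rest on few fragments.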
